A study of Mus musculus with 12 samples.

Results

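Integrins of the epidermal basement membrane and the chains of laminin-332 were followed in RNA-seq of mouse back skin. The genes were taken by symbol from the deposited expression table: the integrin subunit genes Itga2, Itga3, Itga5, Itga6, Itgb1 and Itgb4, and the laminin chain genes Lama3 and Lamb3. All 8 symbols were among the 18505 genes of the table, and all 8 passed the filter on low values, a mean of at least 0.1 over the 12 samples. Skin was collected on day 10 from male wild-type BALB/c mice that were 5 to 6 weeks old when supplied, with 4 samples in each of 3 groups. All backs were shaved and treated daily. Control backs were coated with petroleum jelly. IMQ + NS backs received imiquimod (IMQ) cream, a Toll-like receptor agonist used to raise psoriasis-like lesions, for 6 h and were then covered with 0.9% NaCl solution (NS). IMQ + BZLF backs received the same cream for 6 h and were then covered with Banzhilian formula (BZLF), a herbal preparation. No cover is described for the control backs, so IMQ and the cover cannot be told apart in the comparisons with control, and the BZLF dose of the sequenced mice is not given in the sources used here. The labels number the samples of a group without saying that each came from a separate mouse, so p-values measure the spread between these samples.

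Integrins are receptors made of an alpha and a beta subunit that hold cells to the matrix around them. In basal keratinocytes, the integrin of Itga6 and Itgb4 sits in hemidesmosomes and joins the keratin network to laminin-332 in the basement membrane. Itga3, Itga2 and Itga5 pair with Itgb1 into receptors for laminin, collagen and fibronectin, which sit outside the hemidesmosome and take part in keratinocyte spreading and migration. Laminin-332, which keratinocytes secrete, holds the chains of Lama3 and Lamb3.

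Expression was read as FPKM, fragments counted per unit of transcript length and per amount of mapped reads, so levels could be set against each other across genes. The FPKM of a sample summed to between 444660 and 506622 over all genes, and 16649 to 16941 genes were above 0. Groups were compared with limma on log2(FPKM + 0.1), and a gene was called at a Benjamini-Hochberg adjusted p under 0.05 over the 15288 genes tested. A DEG also needed a log2 fold change over 1 in size. Control replicate 2 stood apart from the other controls: the proliferation gene Mki67 was at 23.7 FPKM in it against 2.10 to 3.55 FPKM in the others, and the hair matrix factor Hoxc13 at 22.8 against 0.752 to 1.83 FPKM. It also held the highest control value of 6 of the 8 genes, all but Itgb4 and Lamb3. Values without this sample are given for the laminin chains, Itga6 and Itgb4, and elsewhere where they change a call or a count.

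The basal keratinocyte markers Krt5, Krt14, Krt15, Trp63 and Col17a1 were above 0 in every sample. Their summed level was 1335 to 1807 FPKM in the control, 3349 to 5430 FPKM in the IMQ + NS and 1659 to 2332 FPKM in the IMQ + BZLF samples. Against control, 3 of the 5 markers were higher in the IMQ + NS group and 1, Krt15, was lower. Of all genes tested, 29.0% were called higher and 27.1% lower in this comparison. Krt14, the main basal keratin, rose by a log2 fold change of 2.08 (SE 0.19, adjusted p = 4.8e-05). Against IMQ + NS, 3 of the 5 were lower in the IMQ + BZLF group, or 2 of 5 under each of the other scalings tried, and Krt14 fell by 1.54 on the log2 scale (SE 0.22, adjusted p = 0.00571). Of all genes tested, 5.17% were called lower in that comparison. In whole skin, fewer cells of a type and less RNA per cell cannot be told apart, and the part of these and the following markers in the results that follow was not tested. Markers of other cells moved as well. All 4 hyperproliferative keratinocyte markers, Krt6a, Krt6b, Krt16 and Krt17, were higher in IMQ + NS than in control, with a median log2 fold change of 6.52. Of these, 3 were lower in IMQ + BZLF than in IMQ + NS, where the median was -3.40, and their sum was 190 to 616 FPKM in the control, 2344 to 4207 FPKM in the IMQ + NS and 1140 to 1392 FPKM in the IMQ + BZLF samples. All 4 skeletal muscle markers (median -2.90) and 3 of 4 adipocyte markers (median -1.50) were lower in IMQ + NS than in control. The summed fibroblast markers were 9866 to 14395 FPKM in the control against 2501 to 3374 FPKM in the IMQ + NS samples, and the 6 hair matrix and shaft markers 7.79 to 81.2 against 3250 to 4737 FPKM, with no marker at 0 in any sample. In the IMQ + BZLF samples, these sums were 3103 to 5910 FPKM for the fibroblast and 4376 to 6734 FPKM for the hair markers.

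**Figure D1:**
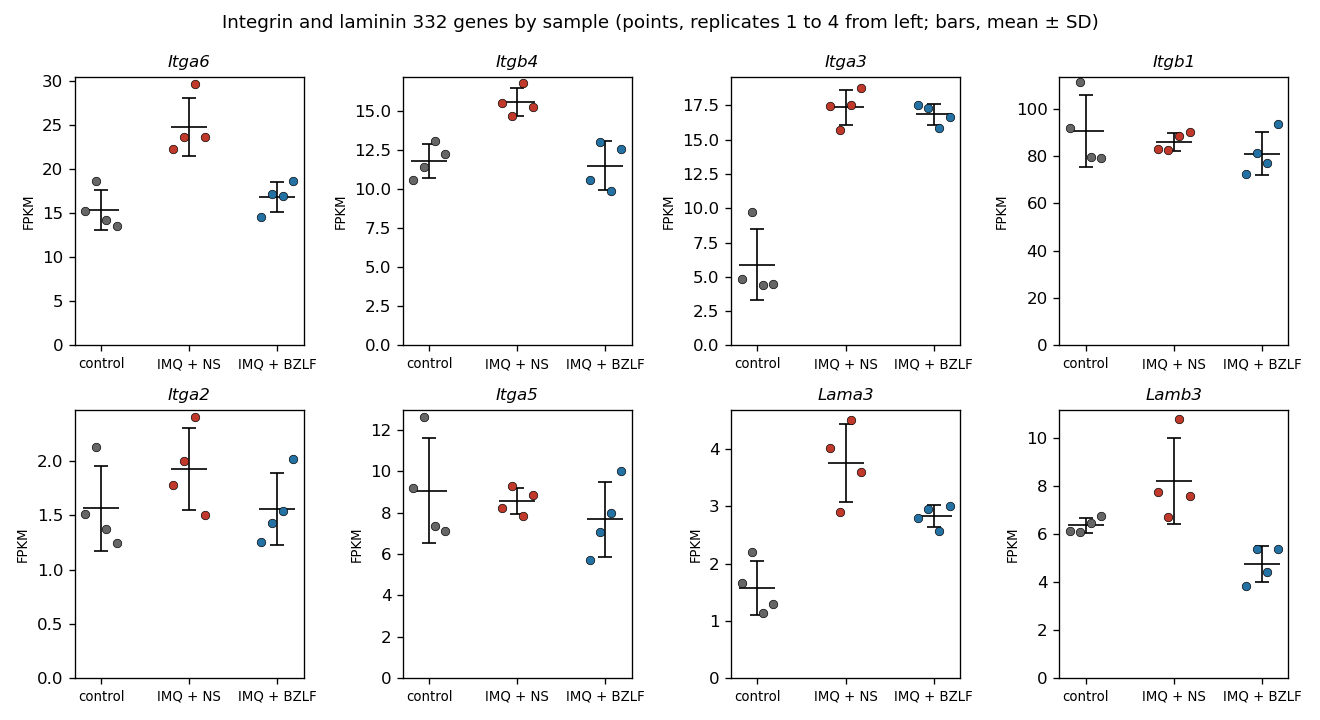
FPKM of the 8 genes in each sample. The vertical axis of each panel starts at 0; points are replicates 1 to 4 of the control (grey), IMQ + NS (red) and IMQ + BZLF (blue) groups from left to right, and bars give the mean and SD of 4 samples. Itga3 lies at 4.41 to 9.74 FPKM in the controls and above 15 FPKM in the 8 other samples, whereas Itga6 and Itgb4 are highest in the IMQ + NS samples.

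Among the laminin-332 chains, Lama3 was higher in both IMQ groups than in control skin, whereas Lamb3 was lowest in the IMQ + BZLF group. Lama3 encodes the alpha chain, whose end is bound by the integrins. It was at 1.66, 2.19, 1.13 and 1.30 FPKM in control replicates 1 to 4, at 4.01, 2.90, 4.50 and 3.60 FPKM in IMQ + NS, and at 2.79, 2.95, 2.56 and 3.0 FPKM in IMQ + BZLF. Every IMQ sample lay above every control, and the ranges of the IMQ groups overlapped. The log2 fold change of Lama3 was 1.23 in IMQ + NS against control (SE 0.22, adjusted p = 0.00150) and 0.85 in IMQ + BZLF against control (SE 0.19, adjusted p = 0.00652). Leaving out control replicate 2, these were 1.39 and 1.01, so that Lama3 was then a DEG in both. Between the IMQ groups it was -0.38 (SE 0.13, adjusted p = 0.126), with a 95% interval of -0.68 to -0.09. This last value was called only without IMQ + NS replicate 2, the lowest of its group, at -0.50 (adjusted p = 0.0419).

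Lamb3, the beta chain, did not follow Lama3. It was at 6.14, 6.10, 6.46 and 6.76 FPKM in the control, at 7.76, 6.73, 10.8 and 7.58 FPKM in the IMQ + NS and at 3.82, 5.37, 4.44 and 5.38 FPKM in the IMQ + BZLF samples. All 4 IMQ + BZLF values were under all 8 others, and IMQ + NS overlapped control by the value of replicate 2. Lamb3 fell by 0.77 on the log2 scale in IMQ + BZLF against IMQ + NS (SE 0.16, adjusted p = 0.0251) and by 0.43 against control (SE 0.13, adjusted p = 0.0210). IMQ + NS against control gave 0.34 (SE 0.14, adjusted p = 0.0680), which was called without IMQ + NS replicate 2 at 0.43 (adjusted p = 0.0386). Leaving out control replicate 2, the values against control were 0.32 for IMQ + NS, not called, and -0.45 for IMQ + BZLF, called. The fall against IMQ + NS was not called without IMQ + NS replicate 4, IMQ + BZLF replicate 2 or IMQ + BZLF replicate 3 (adjusted p = 0.0567, 0.0504 and 0.0685), nor with no filter on low values (adjusted p = 0.0587). The fall against control was not called without control replicate 3, control replicate 4 or IMQ + BZLF replicate 3 (adjusted p = 0.0514, 0.0568 and 0.0576). In the annotation of GRCm38, Lamb3 spans chr1:193207699-193343878 on the plus strand. The protein-coding genes Hsd11b1 (mean 10.9 FPKM) and G0s2 (37.4 FPKM) overlap this span on the opposite strand. Only gene spans were compared, so whether the Lamb3 value depends on how strand was counted was not tested.

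The ratio of Lama3 to Lamb3 within a sample does not move with the scaling of that sample. It was 0.270, 0.359, 0.175 and 0.192 in the control, 0.517, 0.431, 0.416 and 0.475 in the IMQ + NS and 0.729, 0.549, 0.578 and 0.558 in the IMQ + BZLF samples. The 3 groups did not overlap. The log2 ratio differed by 0.94 between IMQ + NS and control, by 0.39 between IMQ + BZLF and IMQ + NS, and by 1.33 between IMQ + BZLF and control. Each of these gave p = 0.0286 in a two-sided exact permutation test, the smallest that 4 against 4 samples allow, and 0.0429 after adjustment over the 9 ratio comparisons made. Leaving out control replicate 2, the differences from control were 1.13 and 1.52 (exact permutation p = 0.0571, the smallest possible for 3 against 4).

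The hemidesmosome integrin genes Itga6 and Itgb4 were both higher in IMQ + NS than in control skin and lower in IMQ + BZLF than in IMQ + NS. The IMQ + NS samples enter both of these comparisons. Itga6 lies at chr2:71745616-71858416 and Itgb4 at chr11:115974709-116008412, both on the plus strand. Itga6, the laminin-binding alpha subunit, was at 15.2, 18.6, 14.2 and 13.6 FPKM in the control, at 22.3, 23.7, 29.6 and 23.6 FPKM in the IMQ + NS and at 14.5, 17.1, 16.9 and 18.6 FPKM in the IMQ + BZLF samples. The IMQ + NS values lay above all 8 others, and the other groups overlapped. Itga6 rose by 0.69 on the log2 scale in IMQ + NS against control (SE 0.13, adjusted p = 0.00195) and fell by 0.56 in IMQ + BZLF against IMQ + NS (SE 0.10, adjusted p = 0.0154). The IMQ + BZLF to control value was 0.13 (adjusted p = 0.389), with a 95% interval of -0.15 to 0.41. Leaving out control replicate 2, Itga6 differed from control by 0.78 in IMQ + NS, called, and by 0.23 in IMQ + BZLF, not called. The calls of Itga6 held under all 19 alternatives of each comparison, and the adjusted p of the fall lay between 0.0150 and 0.0488.

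Itgb4, whose long cytoplasmic tail binds plectin, was at 10.6, 11.4, 13.1 and 12.3 FPKM in the control, at 15.6, 14.7, 16.9 and 15.3 FPKM in the IMQ + NS and at 10.6, 13.1, 9.87 and 12.6 FPKM in the IMQ + BZLF samples. As for Itga6, every IMQ + NS value was above the 8 others. Itgb4 rose by 0.40 on the log2 scale in IMQ + NS against control (SE 0.09, adjusted p = 0.00544), a call that quantile normalization ended (0.23, adjusted p = 0.0876). It fell by 0.44 in IMQ + BZLF against IMQ + NS (SE 0.10, adjusted p = 0.0296). This call was near the threshold and ended in 9 of 19 alternatives, among them those that left out IMQ + NS replicate 1, 2, 3 or 4, IMQ + BZLF replicate 1 or IMQ + BZLF replicate 3, with adjusted p between 0.0518 and 0.0888. Against control, IMQ + BZLF gave -0.04 (adjusted p = 0.771), with a 95% interval of -0.31 to 0.22. Leaving out control replicate 2, Itgb4 differed from control by 0.38 in IMQ + NS, called, and by -0.06 in IMQ + BZLF, not called.

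The proportion of these subunits to each other did not pass the test in any comparison. The ratio of Itga6 to Itgb4 had a geometric mean of 1.29 in the control, 1.58 in the IMQ + NS and 1.46 in the IMQ + BZLF group. The groups overlapped in each comparison, and the exact permutation p was 0.2 for IMQ + NS against control, 0.343 for IMQ + BZLF against IMQ + NS and 0.314 for IMQ + BZLF against control. Against the basal keratin Krt14, in contrast, Itgb4 differed between all groups. The ratio of Itgb4 to Krt14 was 0.0261, 0.0249, 0.0257 and 0.0215 in the control, 0.00979, 0.00737, 0.00570 and 0.00825 in the IMQ + NS and 0.0205, 0.0146, 0.0142 and 0.0169 in the IMQ + BZLF samples. No ranges overlapped, and the log2 ratio was lower by 1.68 in IMQ + NS than in control and higher by 1.10 in IMQ + BZLF than in IMQ + NS (exact permutation p = 0.0286 and adjusted p = 0.0429 for each). IMQ + BZLF was lower than control by 0.58, with the same p-values. Leaving out control replicate 2, the differences from control were -1.67 and -0.57 (exact permutation p = 0.0571). The Krt14 level thus moved further than that of Itgb4 in both comparisons. Krt14 was the only basal marker used as a reference, and the other markers did not all move with it. Krt5 had means of 657, 1652 and 955 FPKM in control, IMQ + NS and IMQ + BZLF, and Trp63 of 19.1, 39.8 and 33.4 FPKM. Krt15, in contrast, had 387, 217 and 259 FPKM, and Col17a1 45.8, 48.9 and 40.3 FPKM. Ratios of Itgb4 to these markers were not tested.

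**Figure D2:**
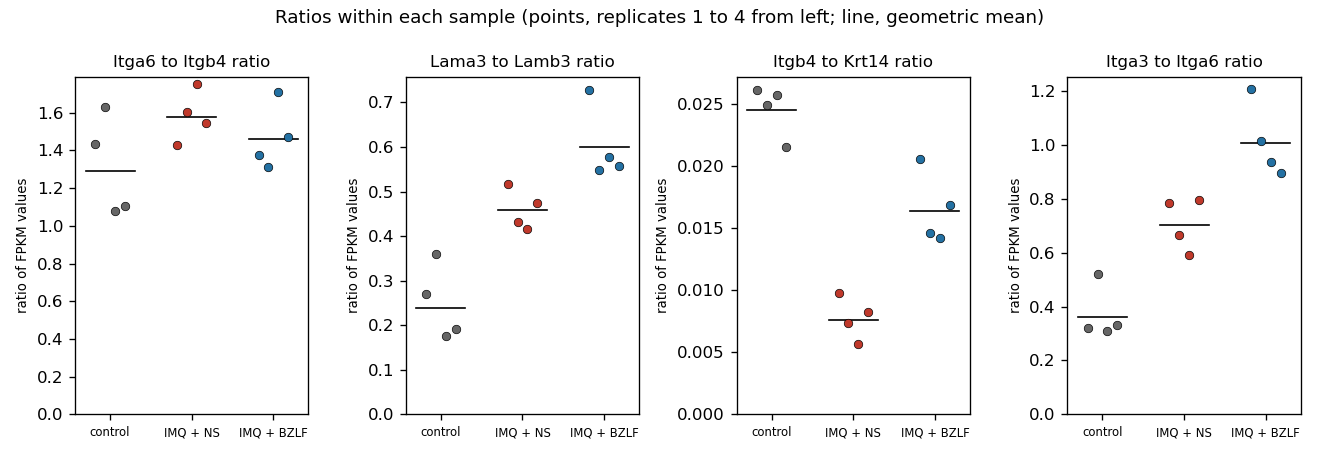
Ratios of FPKM values within each sample, with axes from 0. Points are replicates 1 to 4 from left to right and lines are geometric means of 4 samples; the Lama3 to Lamb3 and Itgb4 to Krt14 ratios do not overlap between groups, the Itga6 to Itgb4 ratios do, and the Itga3 to Itga6 ratio was chosen after its values had been seen and was not tested.

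Itga3, the alpha subunit of a laminin receptor outside the hemidesmosome, had the largest log2 fold change of the 8 genes against control in both IMQ groups. The gene lies at chr11:95044474-95076801 on the minus strand. It was at 4.86, 9.74, 4.41 and 4.49 FPKM in the control, at 17.4, 15.7, 17.5 and 18.8 FPKM in the IMQ + NS and at 17.5, 17.3, 15.8 and 16.7 FPKM in the IMQ + BZLF samples. Every IMQ sample was above every control, including replicate 2, and the IMQ groups overlapped. Itga3 rose by 1.63 on the log2 scale in IMQ + NS (SE 0.24, adjusted p = 0.000565) and by 1.59 in IMQ + BZLF (SE 0.24, adjusted p = 0.000812). These values were 1.90 and 1.85 without control replicate 2. Between the IMQ groups the log2 fold change was -0.04 (SE 0.07, adjusted p = 0.75), with a 95% interval of -0.19 to 0.11, and its sign turned under median ratio scaling and quantile normalization. The ratio of Itga3 to Itga6, which was picked after its values had been seen and was therefore not tested, was 0.311 to 0.523 in the control, 0.593 to 0.795 in the IMQ + NS and 0.896 to 1.21 in the IMQ + BZLF samples.

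Itga3 had the largest rise and Lamb3 was the 1 gene called lower in IMQ + BZLF against control, so the promoters of these genes are shown. RefSeq on GRCm38.p6 gave a window of 250 bases before and 50 bases after the start for 5 of the 8 genes, Itga2, Itga3, Itga5, Itgb1 and Lamb3, with 2 windows each for Itga3 and Lamb3. The window farthest upstream is shown. The Itga3 window is at chr11:95076665-95076964 on the minus strand and the Lamb3 window at chr1:193301744-193302043 on the plus strand. The Lamb3 window lies inside the gene span given above and not at its first base. The span and the window come from different annotations, and transcript starts were not compared. Both are written 5′ to 3′ in the direction of the gene, and capitals mark the GC box GGGCGG, searched on both strands.
Itga3 promoter: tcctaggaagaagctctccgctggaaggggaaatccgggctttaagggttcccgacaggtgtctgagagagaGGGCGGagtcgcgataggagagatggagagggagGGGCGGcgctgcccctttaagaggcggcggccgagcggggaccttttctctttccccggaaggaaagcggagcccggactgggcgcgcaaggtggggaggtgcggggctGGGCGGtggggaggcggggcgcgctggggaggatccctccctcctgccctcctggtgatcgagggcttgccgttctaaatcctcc
Lamb3 promoter: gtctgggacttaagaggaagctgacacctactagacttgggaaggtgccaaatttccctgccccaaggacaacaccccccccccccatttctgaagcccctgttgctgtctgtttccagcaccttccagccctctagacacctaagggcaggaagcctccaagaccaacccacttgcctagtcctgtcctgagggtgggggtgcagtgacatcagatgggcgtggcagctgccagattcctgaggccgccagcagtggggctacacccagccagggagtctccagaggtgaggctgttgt
The Itga3 window shown held 3 GC boxes and 66.7% G and C, and the Lamb3 window shown held 0 GC boxes and 59.3% G and C. The second Itga3 window, at chr11:95069149-95069448, held 1 GC box and the second Lamb3 window 0. The windows of Itga2, Itga5 and Itgb1, genes not called in any comparison with all samples, held 1, 2 and 1 GC boxes. A link between the GC box and the fold changes was not tested. The GC box was present in 35.7% of the 32851 promoter windows of the same length. TGAGTCA or TGACTCA, bound by AP-1 factors, was in 5.20% of all windows, the E-box CACGTG in 7.15% and TATAAA in 13.6%, and none of these was in a window of the 5 genes.

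Itgb1, the common beta partner, was the most abundant of the 8 genes in every group and was not called in any comparison. The gene is at chr8:128685654-128733200 on the plus strand. It was at 92.0, 111, 79.6 and 79.4 FPKM in the control, at 83.1, 82.4, 88.4 and 90.2 FPKM in the IMQ + NS and at 72.3, 81.3, 77.1 and 93.6 FPKM in the IMQ + BZLF samples. The 3 groups overlapped, with control replicate 2 highest of all. IMQ + NS differed from control by -0.06 on the log2 scale (adjusted p = 0.661), with a 95% interval of -0.32 to 0.19, and -0.09 between the IMQ groups (adjusted p = 0.546), with an interval of -0.27 to 0.09. IMQ + BZLF against control gave -0.15 (adjusted p = 0.339), with an interval of -0.44 to 0.14. Without control replicate 2 the value in IMQ + NS against control turned to 0.04, also not called.

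The collagen receptor gene Itga2, at chr13:114833081-114932100 on the minus strand, was the least abundant of the 8 by its mean in every group. It was at 1.51, 2.13, 1.37 and 1.25 FPKM in the control, at 1.78, 2.0, 2.40 and 1.5 FPKM in the IMQ + NS and at 1.25, 1.42, 1.54 and 2.02 FPKM in the IMQ + BZLF samples. All groups overlapped, and the highest control was replicate 2. IMQ + NS against control gave a log2 fold change of 0.29 (SE 0.20, adjusted p = 0.241), which became 0.44 and was called without control replicate 2 (adjusted p = 0.0419). IMQ + BZLF against IMQ + NS gave -0.29 (SE 0.18, adjusted p = 0.373), with a 95% interval of -0.69 to 0.11, and IMQ + BZLF against control gave an interval of -0.46 to 0.46 (adjusted p = 0.994).

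Itga5, the alpha subunit of the main fibronectin receptor, lies at chr15:103344286-103366763 on the minus strand. It was at 9.17, 12.6, 7.37 and 7.11 FPKM in the control, at 8.21, 9.29, 7.86 and 8.84 FPKM in the IMQ + NS and at 5.69, 7.05, 7.98 and 9.99 FPKM in the IMQ + BZLF samples. All groups overlapped, with the widest spread in the control and IMQ + BZLF groups. IMQ + NS differed from control by -0.05 on the log2 scale (adjusted p = 0.831), with a 95% interval of -0.45 to 0.35. It was 0.12 without control replicate 2, also not called. It was -0.18 between the IMQ groups (adjusted p = 0.527), with an interval of -0.52 to 0.16, and -0.23 in IMQ + BZLF against control (adjusted p = 0.406), with an interval of -0.73 to 0.27.

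The order of the FPKM levels changed below Itgb1. In the control, Itga6 (15.4 ± 2.27, SD, n = 4) came next, followed by Itgb4 (11.9 ± 1.09), Itga5 (9.06 ± 2.53), Lamb3 (6.37 ± 0.309), Itga3 (5.88 ± 2.58), Lama3 (1.57 ± 0.469) and Itga2 (1.56 ± 0.391), and the neighbours Itgb4 and Itga5, Lamb3 and Itga3, and Lama3 and Itga2 overlapped. In IMQ + NS, Itga3 (17.4 ± 1.26) stood after Itga6 (24.8 ± 3.26) and overlapped Itgb4 (15.6 ± 0.898), and Itga5 overlapped Lamb3. In IMQ + BZLF, Itga3 (16.8 ± 0.772) and Itga6 (16.8 ± 1.68) overlapped and lay above Itgb4 (11.5 ± 1.55), which overlapped Itga5. Lama3 was above Itga2 with no overlap in both IMQ groups.

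**Figure D3:**
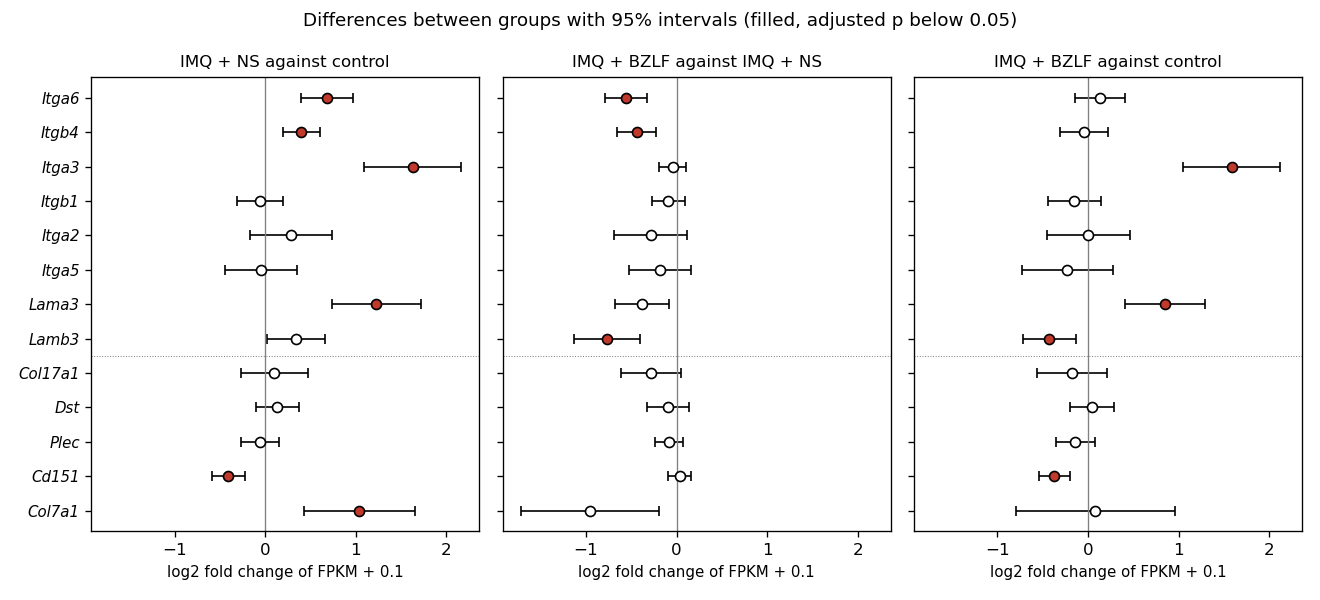
Log2 fold changes with 95% intervals of the 8 genes and, under the dotted line, 5 partners of the hemidesmosome and anchoring fibril. Filled points were called at an adjusted p under 0.05; Itga3 lies at 1.63 and 1.59 against control, and the filled points of IMQ + BZLF against IMQ + NS are Itga6, Itgb4 and Lamb3, all to the left of 0.

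In IMQ + NS against control, 4 of the 8 genes were called higher, Itga3, Itga6, Itgb4 and Lama3, against 29.0% of all genes tested. None of the 8 was called lower, against 27.1% of all genes, and none was lower at an unadjusted p under 0.05. Itga3 and Lama3 were DEGs, 2 of 8 against 11.4% of all genes. The 4 called genes were also those whose groups did not overlap, against 23.7% of all genes for higher values. The median log2 fold change of the 8 was 0.37, against 0.05 over all genes tested. Without control replicate 2, 5 of the 8 were called higher.

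In IMQ + BZLF against IMQ + NS, 3 of the 8 genes were called lower, Itga6, Itgb4 and Lamb3, against 5.17% of all genes tested. None was called higher, against 1.28% of all genes, and none was higher at an unadjusted p under 0.05. Of the 8, 0 were DEGs, against 2.20% of all genes that were lower DEGs. The same 3 genes did not overlap between the groups, against 10.9% of all genes for lower values. All 8 fold changes were below 0, against 55.0% of all genes, except that Itga3 was at 0.01 under median ratio scaling and under quantile normalization. The median log2 fold change of the 8 was -0.34, against -0.02 over all genes. With no filter on low values, or without IMQ + NS replicate 4 or IMQ + BZLF replicate 3, the count was 1.

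In IMQ + BZLF against control, 2 of the 8 were called higher, Itga3 and Lama3, against 23.8% of all genes tested, and 1 lower, Lamb3, against 29.2%. Itga3 was a DEG, 1 of 8 against 9.65% of all genes. The counts were 2 higher, 1 lower and 2 DEGs, Itga3 and Lama3, when control replicate 2 was left out. The same genes did not overlap, against 19.4% of all genes for higher and 28.1% for lower values. The median log2 fold change was -0.02 over the 8 and over all genes. Both comparisons with control use the same 4 control samples.

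The partners of the hemidesmosome and anchoring fibril were read beside the members. For this and the following lists, the shares of all genes called higher and lower apply. They were 29.0% and 27.1% in IMQ + NS against control and 1.28% and 5.17% in IMQ + BZLF against IMQ + NS. In IMQ + BZLF against control they were 23.8% and 29.2%. No such share was computed for an unadjusted p. Of the 5 partner genes described, 1 was higher and 1 lower in IMQ + NS than in control skin, with a median log2 fold change of 0.10, or -0.03 with equal sums. Col7a1, which forms the anchoring fibrils under the basement membrane, rose from a mean of 3.57 to 7.21 FPKM (log2 fold change 1.04, SE 0.27, adjusted p = 0.0105). Cd151, a tetraspanin that associates with laminin-binding integrins, fell by 0.41 on the log2 scale (SE 0.08, adjusted p = 0.00251). Between the IMQ groups, 0 of the 5 were called by limma, and 1, Col7a1, was lower at an unadjusted p under 0.05. It gave -0.96 (SE 0.34, adjusted p = 0.132). In IMQ + BZLF against control, 1 of the 5 was lower, Cd151, which fell by 0.37 (SE 0.08, adjusted p = 0.00390), and 0 were higher, also at an unadjusted p under 0.05.

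The hemidesmosome genes Col17a1, Dst and Plec were not called in any comparison, except that Plec was lower in both comparisons with control under quantile normalization. Col17a1, the transmembrane collagen of the hemidesmosome, had a log2 fold change of 0.10 for IMQ + NS against control (adjusted p = 0.609), of -0.28 between the IMQ groups (adjusted p = 0.287) and of -0.18 for IMQ + BZLF against control (adjusted p = 0.398). The plakins Dst and Plec, which link the integrin to keratin, stayed within -0.14 and 0.14. For IMQ + BZLF against IMQ + NS, Dst had an adjusted p of 0.624 and Plec of 0.494.

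**Figure D4:**
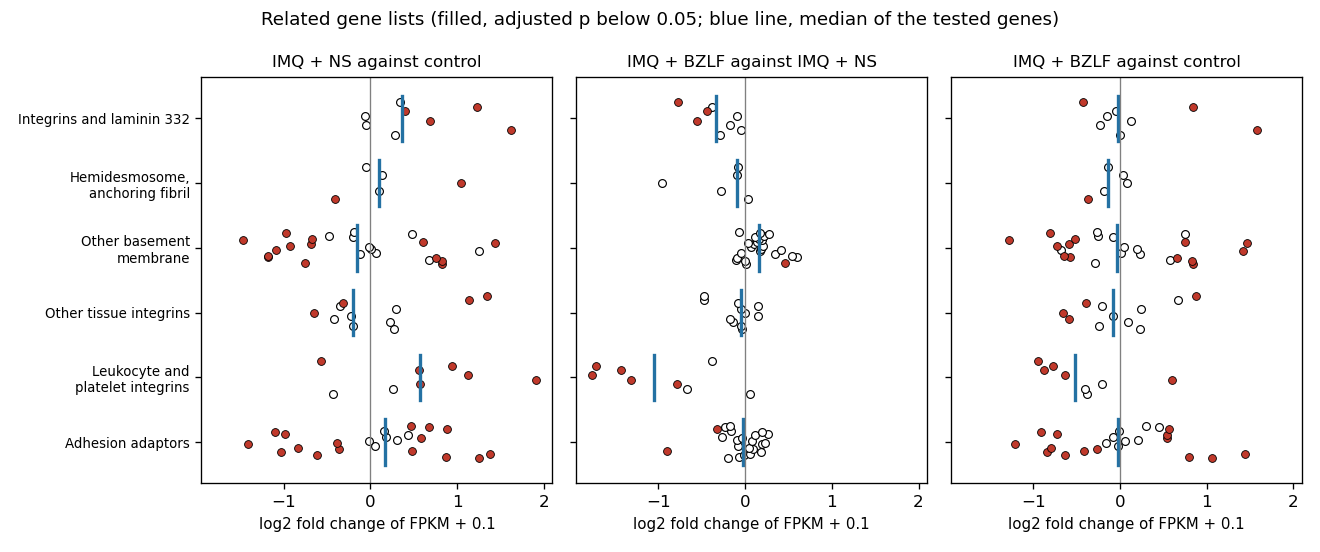
Log2 fold changes of the genes of each list in the 3 comparisons. Each point is a gene, filled where called at an adjusted p under 0.05, and the blue line is the median of the tested genes; in IMQ + BZLF against IMQ + NS the medians are -0.34 for the 8 integrin and laminin-332 genes, -1.05 for the leukocyte and platelet integrins and 0.17 for the other basement membrane genes.

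Of 26 other basement membrane genes, 24 were tested. In IMQ + NS against control, 5 were higher and 9 lower, against 29.0% and 27.1% of all genes, and their median was -0.16. Lama5, the laminin alpha chain most widespread in adult basement membranes, rose by 1.43 (SE 0.34, adjusted p = 0.00731), and Col18a1, the source of endostatin, by 0.83 (SE 0.20, adjusted p = 0.00666). Lamb2 fell by 1.47 (SE 0.14, adjusted p = 6.2e-05), and Frem1, a protein of the embryonic dermal junction, by 1.09 (SE 0.25, adjusted p = 0.00562). Between the IMQ groups, Col15a1, a collagen of vessel and muscle basement membranes, was the 1 gene called higher (0.46, SE 0.11, adjusted p = 0.0447). At an unadjusted p under 0.05, 8 were higher and 0 lower. The IMQ + BZLF group had 6 higher and 7 lower than control, with Lama5 at 1.47, the proteoglycan Agrn at 0.84, Lamb2 at -1.28 and the integrin ligand Npnt at -0.80. Without control replicate 2, the count of higher genes was 8 in both comparisons with control, and with samples scaled to equal sums it was 3 in IMQ + NS and 4 in IMQ + BZLF.

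Among 11 other integrin subunits of tissue cells, 2 were higher and 2 lower in IMQ + NS than in control. Of all genes tested, 29.0% were higher and 27.1% lower. Itgb8 and Itgb6, which pair with Itgav into receptors that activate TGF-beta, rose by 1.34 (SE 0.23, adjusted p = 0.00138) and 1.14 (SE 0.31, adjusted p = 0.0131). Itga9 fell by 0.65 and Itgb5 by 0.31. Limma called 0 of the 11 between the IMQ groups, with 1 lower at an unadjusted p under 0.05. Against control, the IMQ + BZLF group had 1 higher, Itgb8 at 0.88, and 3 lower, among them Itga9 at -0.65 and the muscle laminin receptor Itga7 at -0.59. The counts of higher genes were 4 and 3 without control replicate 2. With equal sums 4, and with quantile normalization 5, of the 11 were lower in IMQ + NS than in control.

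The leukocyte and platelet integrins had a median fold change of -1.05 in IMQ + BZLF against IMQ + NS. Of 8 tested, 5 were lower, against 5.17% of all genes, or 4 with equal sums and under median ratio scaling. None was called higher, and 0 were higher at an unadjusted p under 0.05. Itgam, the alpha subunit of the myeloid complement receptor, had means of 13.1 FPKM in the control, 28.6 FPKM in IMQ + NS and 8.38 FPKM in IMQ + BZLF and fell by 1.76 between the IMQ groups (SE 0.18, adjusted p = 0.00151). Its partner Itgb2 fell by 1.72 (SE 0.21, adjusted p = 0.00328). In IMQ + NS against control, 5 were higher and 1 lower, against 29.0% and 27.1% of all genes. Itgal, the lymphocyte subunit, was at 1.92, Itgam at 1.12 and Itgb7 at -0.56. The higher count was 4 without control replicate 2, with equal sums and under median ratio scaling, and 3 under quantile normalization. The lower count was 2 under each of the other scalings. In IMQ + BZLF against control, Itgal was the 1 gene higher (0.60, adjusted p = 0.0488), a call lost without control replicate 2 and under each of the other scalings. In the same comparison 4 were lower, among them Itgb7 at -0.94 and Itgax at -0.87. This count was 5 without control replicate 2, and 6 with equal sums and under quantile normalization. The summed leukocyte markers Ptprc, Cd3e, Lyz2, Cd68 and Csf1r were 1032 to 1484 FPKM in the control, 588 to 959 FPKM in the IMQ + NS and 403 to 681 FPKM in the IMQ + BZLF samples. Lyz2 made up most of this sum, and Ptprc, the marker common to leukocytes, went the other way in IMQ + NS against control, rising from a mean of 8.82 to 13.6 FPKM (adjusted p = 0.0186), and fell to 6.20 FPKM in IMQ + BZLF (adjusted p = 0.0144 against IMQ + NS). The part of these markers in the integrin values was not tested.

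Of 22 adaptors that link integrins to the cytoskeleton, 8 were higher and 8 lower in IMQ + NS than in control skin. Of all genes tested, 29.0% were higher and 27.1% lower. Fermt1, the kindlin of epithelia, rose by 1.38 (SE 0.26, adjusted p = 0.00204) and Actn1, an actin crosslinker, by 1.25 (SE 0.20, adjusted p = 0.000900). Lims2 and Tns2 fell by 1.40 and 1.10. Of the adaptors, 0 were higher between the IMQ groups, with 2 at an unadjusted p under 0.05 and 2, Parva and Tns1, called under median ratio scaling and under quantile normalization, and 2 were lower, Fermt3, the kindlin of blood cells, at -0.90 (adjusted p = 0.00549) and Tns4 at -0.32 (adjusted p = 0.0219). Under median ratio scaling, Fermt3 was the 1 adaptor lower. The IMQ + BZLF group had 6 higher and 8 lower than control, with Fermt1 at 1.44, Actn1 at 1.06, Lims2 at -1.21 and Tns2 at -0.91. Without control replicate 2 the counts of higher adaptors were 11 in IMQ + NS and 9 in IMQ + BZLF.

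The genes whose pattern was most like that of each member were found by Pearson's r of log2(FPKM + 0.1) over the 12 samples, among the 12649 genes whose mean FPKM reached 1. These values describe samples that share 3 groups, so genes that differ between the groups score high. Itga3 was most like Gjb6, a connexin, at r = 0.998, and Ppfia1 at 0.997. Gjb6 had means of 1.17 FPKM in the control, 23.0 FPKM in IMQ + NS and 23.4 FPKM in IMQ + BZLF. For Itga6, the lipase gene Pla2g7 reached 0.982, with means of 6.68, 15.3 and 7.56 FPKM in the same order. Itgb4 was most like the chemokine Ccl4 at 0.945 and the leukotriene receptor Ltb4r1 at 0.932, and Lamb3 most like the transporter Slc15a3 at 0.954 and the chemokine Ccl3 at 0.953. Lama3 was most like Micall1 at 0.987 and Spon1 at 0.977. The values for the genes not called in any comparison were 0.951 and 0.942 for Itgb1 with Extl3 and Rraga, 0.941 and 0.931 for Itga5 with Lhfpl2 and Atp6v1b1, and 0.919 for Itga2 with both Phf21a and Rabepk.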

How the data were processed

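Total RNA of 12 back skin samples, 4 each of control, IMQ + NS and IMQ + BZLF, was sequenced. The authors deposited 1 table of FPKM values per gene and sample, not on a log scale and not pooled. The study's methods describe Bowtie2 alignment to mRNA and lncRNA transcripts and eXpress quantification from a stranded ribosomal depletion library, whereas the submitters' notes list fastp, HISAT2, HTSeq, R 3.2.0 and mm10, and the labels name another extraction reagent and library kit. How strand was counted is not given in the sources used here. Fragment counts were not used, so the depth behind each value is unknown. The unit was FPKM, and counting error could not be computed.

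Genes averaging at least 0.1 FPKM were fitted on log2(FPKM + 0.1) with limma 3.58.1 in R 4.3.3, with a variance trend, for 2 groups at a time and with Benjamini-Hochberg adjustment over 15288 genes. The added constant understates fold changes of low genes. Ratios were compared by two-sided exact permutation tests in Python 3.11.15 with scipy 1.17.1. The fit was tested on simulated data. The members and gene lists were chosen with earlier results of these data known. Named genes were all members, all hemidesmosome partners, of each further list the 2 called genes with the largest fold change in each direction and a mean FPKM of at least 1, and the 2 genes most like each member. Some results are not reported here. Coordinates are from GENCODE vM21 on GRCm38, which mm10 denotes, and promoters from RefSeq.

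The alternatives were the added constant, the filter, 3 other scalings, all samples in 1 fit, no trend, robust moderation, a block for the replicate number and leaving out each sample. The related lists without control replicate 2 and under the other scalings were added after seeing the data.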

Additional observations from a re-analysis of the deposited data

Results flagged for a closer look

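The Itga3 level of control replicate 2, 9.74 FPKM, stood away from those of the other controls, which lay between 4.41 and 4.86 FPKM. The gap to the nearest of them was 0.914 of the range of the group, over the limit of 0.829 set by Dixon's criterion for 4 samples. It was the 1 value marked among the 24 groups of 4 samples examined, 8 genes in 3 groups, and chance marks about 1 in 20 groups. Every IMQ sample was still higher in Itga3, at 15.7 FPKM or above.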

How the results depend on the processing

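Of 456 recomputed log2 fold changes of the 8 genes, 424 kept their direction and their side of the threshold, 17 lost and 3 gained a call, and 12 changed sign, all 12 among values not called. The calls of Itga3, Itga6 and Lama3 held under every alternative. Itga3 in IMQ + BZLF against IMQ + NS turned to 0.0141 under median ratio scaling and 0.0102 under quantile normalization, and Itga2 in IMQ + BZLF against control to -0.0949 with equal sums and -0.0296 under quantile normalization. With 1 sample left out, Itga5 and Itgb1 in IMQ + NS against control ranged from -0.15 to 0.12 and from -0.12 to 0.0427, and Itga2 and Itgb4 in IMQ + BZLF against control from -0.12 to 0.15 and from -0.11 to 0.0269. The count of members lower was 1 with no filter and 1 to 3 with a sample left out in IMQ + BZLF against IMQ + NS, and 0 to 1 in IMQ + BZLF against control. With equal sums the median of all genes moved from 0.0535 to -0.0727 in IMQ + NS against control. The share of higher among called genes moved with it, from 4427 higher and 4142 lower to 3161 and 4999, and in IMQ + BZLF against control from 3640 and 4458 to 2771 and 5179. Between the IMQ groups, 195 higher and 791 lower became 295 and 579 under median ratio scaling, 311 and 660 under quantile normalization, 119 and 541 with no filter, and 95 and 603 with all samples in 1 fit. The cause was not tested.

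With 1 sample left out, the Lama3 to Lamb3 log2 ratio differed by 0.79 to 1.13 in IMQ + NS against control, 0.29 to 0.45 in IMQ + BZLF against IMQ + NS and 1.18 to 1.52 in IMQ + BZLF against control. The Itgb4 to Krt14 log2 ratio differed by -1.80 to -1.54, 0.96 to 1.22 and -0.69 to -0.51. The smallest exact p that 3 against 4 samples allow is 0.0571, so these cannot pass. A replicate block cannot move a difference between groups of 4 (0.94, 0.39 and 1.33, and -1.68, 1.10 and -0.58), and the smallest p of 4 pairs is 0.125, so it does not bear on these ratios. Whether the numbers pair samples is not known: correlations of same-numbered deviations ranged from -0.152 to 0.260, not all above 0.1, while 14 of 24 comparisons of a sample with another group were highest for its own number, a hint from the data and not the design. The block ended the call of Itgb4 in IMQ + BZLF against IMQ + NS (adjusted p = 0.0661) and no other member call. Depth was unknown, and 4 samples a group limited the precision.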
